A study of Caenorhabditis elegans with 2 samples.

Results

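The hedgehog-related and patched-related genes of Caenorhabditis elegans were examined for binding of the transcription factor LIN-29 at the L4 larval stage. Members were all WBcel235 protein-coding genes with a symbol that begins with wrt-, grd-, grl-, hog-, ptc-, ptr- or ptd-, together with qua-1. The rule used gene symbols and no measured value, but it was chosen with earlier results of these data known. The rule gave 86 of 19973 protein-coding genes. Of these, 59 encode hedgehog-related proteins, namely 31 ground-like (grl), 16 groundhog (grd) and 10 warthog (wrt) genes, with hog-1 and the quahog gene qua-1. The other 27 encode patched-related proteins, namely 24 patched-related (ptr) genes, the patched genes ptc-1 and ptc-3, and the patched-domain gene ptd-2.

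LIN-29 binding was measured by chromatin immunoprecipitation and sequencing (ChIP-seq) in 2 biological replicates of whole animals. Both came from strain RW12227, which carries st12227[lin-29::TY1::EGFP::3xFLAG] II, a TY1, EGFP and 3xFLAG tag that was inserted by CRISPR into the endogenous lin-29 gene, and the tagged protein was recovered with an anti-GFP antibody. The animals were L4 larvae of 49 hours, grown from larvae that were arrested by starvation at L1 after bleaching, and no sex was recorded. There was 1 group, without a second genotype, stage or treatment, so no difference between conditions could be tested, and the control library that the labels point to was not analysed here. In whole animals, weak binding in many cells and strong binding in a few cells cannot be told apart.

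LIN-29 is a zinc finger protein of the heterochronic pathway that drives the switch of the epidermis from larval to adult programmes, including the exit from the moulting cycle. Hedgehog is a secreted signal that is cut and lipid-modified by its own C-terminal domain, and in flies and vertebrates it acts by binding the membrane protein Patched, which otherwise keeps Smoothened off. C. elegans lacks a Smoothened gene and a classical hedgehog, but has large families of hedgehog-related and patched-related proteins, many of them made in the epidermis and other cuticle-lined tissues, where several are needed for moulting and for a sound cuticle.

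A site below is a region in the authors' thresholded list made from both replicates together (the pooled list), in which overlapping peaks were merged. That list kept peaks with an irreproducible discovery rate (IDR, the estimated share of irreproducible peaks among those ranked at least as high) of at most 0.01. A candidate is the same kind of region in the much longer ranked list behind it, most of which did not reach that threshold. Peak heights are given in the units of the authors' peak caller and are called signal. A region was given to a gene when its summit lay between 2000 bp upstream of the 5′ end and the 3′ end, which is the window of that gene.

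The following 3 stretches of ce11 sequence show the DNA under upstream peaks of members, each printed 5′ to 3′ on the strand of the member. At wrt-3, the site lies over and beside a small nucleolar RNA (snoRNA) gene, which is in capitals (chrIV:9477629-9477837, minus strand). At wrt-1 (chrII:7529218-7529318, plus strand) and grl-17 (chrV:13565383-13565483, minus strand), the 101 bp around the summit hold short words that were more frequent at LIN-29 sites than at candidates. These words came from earlier results on the same sites. None was present at the pooled sites of wrt-3, grl-16, ptr-13 or ptr-17, and neither wrt-1 nor grl-17 had a site in the pooled list. In wrt-1 and grl-17, capitals mark ACGCAG or its reverse complement CTGCGT, and in grl-17 also the word GAGAGA read from the other strand.
wrt-3: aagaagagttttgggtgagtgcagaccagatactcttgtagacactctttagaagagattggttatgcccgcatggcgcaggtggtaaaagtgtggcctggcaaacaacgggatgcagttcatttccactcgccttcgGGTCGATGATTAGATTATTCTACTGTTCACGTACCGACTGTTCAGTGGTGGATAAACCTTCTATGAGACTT
wrt-1: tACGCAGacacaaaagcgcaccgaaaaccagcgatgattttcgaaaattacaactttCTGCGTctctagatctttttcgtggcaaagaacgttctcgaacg
grl-17: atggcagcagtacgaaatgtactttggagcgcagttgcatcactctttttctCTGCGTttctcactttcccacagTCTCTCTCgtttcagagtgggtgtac

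In the pooled list, 4 of the 86 members had a site: the warthog gene wrt-3, the ground-like gene grl-16 and the patched-related genes ptr-13 and ptr-17. This share of 4.65% (95% Wilson interval 1.82 to 11.4%) stood beside 4.61% of all protein-coding genes, 920 of 19973. The share of members with a site was near that background, which lies inside their interval. The hedgehog-related genes had 2 members of 59 with a site (3.39%, interval 0.935 to 11.5%) and the patched-related genes 2 of 27 (7.41%, interval 2.06 to 23.4%), and these intervals overlap. By family, 1 of 10 warthog, 1 of 31 ground-like and 2 of 24 ptr genes had a site. None of the 16 groundhog genes had one, for which the interval reaches up to 19.4%, and neither did hog-1, qua-1, ptc-1, ptc-3 or ptd-2. These intervals cover counting error only.

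**Figure D1:**
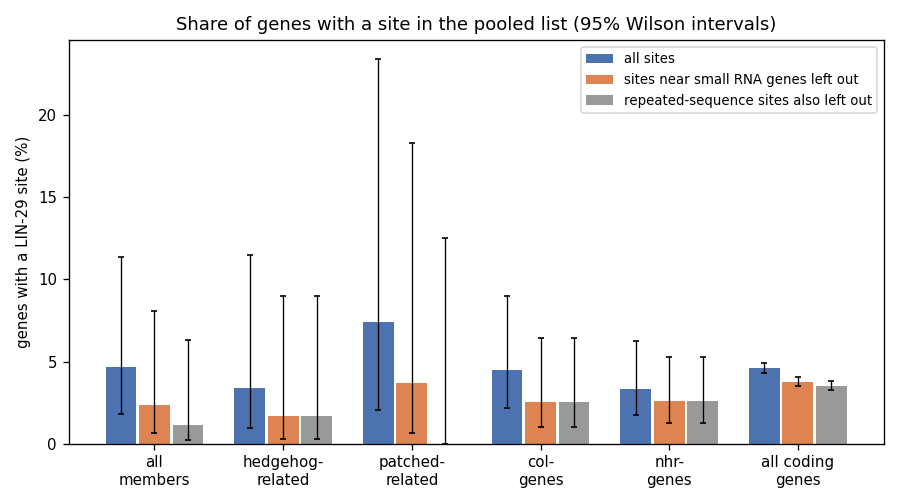
Share of genes with a site in the pooled list, in percent, for the members, their hedgehog-related and patched-related genes, collagen (col-) genes, nuclear hormone receptor (nhr-) genes and all protein-coding genes. Bars give the share with all sites, without sites within 100 bp of a tRNA, snoRNA or snRNA gene, and without these and sites of mostly repeated sequence, and lines give 95% Wilson intervals. The members fall from 4.65% to 1.16% and all coding genes from 4.61% to 3.53%.

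Other large families gave a scale for these shares. A site was found at 7 of 156 collagen (col-) genes (4.49%), which build the cuticle, and at 9 of 269 nuclear hormone receptor (nhr-) genes (3.35%). In the conservative list, a second thresholded list of both replicates, 4 members again had a site, beside 4.39% of coding genes. Its 4 members were wrt-1, wrt-3, ptr-13 and ptr-17, so that wrt-1 took the place of grl-16. In the lists of the single replicates, 1 member had a site in replicate 1 (1.16%, interval 0.206 to 6.3%), beside 2.94% of coding genes, and that member was ptr-17. In replicate 2 it was again 1 member, wrt-3, beside 2.22% of coding genes. With 1 member in each single-replicate list, their overlap says little, and the share of coding genes with a site in both was not counted. In at least 1 of the 4 thresholded lists, 5 members (5.81%) had a site, beside 5.3% of coding genes.

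Among the hedgehog-related genes, wrt-3 had the strongest site. Warthog proteins carry an N-terminal Wart domain in the place of the hedgehog signal, and some also the self-cleaving Hog domain. The site at chrIV:9477642-9477931 had a signal of 76.8, rank 464 of the 856 sites, and an IDR of 0.00126. Its summit lay 331 bp upstream of the 5′ end of wrt-3, and no 5′ end of a coding gene was nearer. It also lay in an intron of cng-3, a cyclic-nucleotide-gated channel gene on the same strand, which ends just upstream of wrt-3. At the same place, replicate 1 had a candidate of 37.2 with an IDR of 0.841, and replicate 2 one of 38.9 with an IDR of 0.00582. The signals were close in both replicates, at the 98.1 and 99.0 percentiles of their candidates, while only replicate 2 passed the threshold.

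The snoRNA gene at this site, F38E11.14, lies in the same cng-3 intron at chrIV:9477629-9477699. The pooled summit was 88 bp from it, and the summit of replicate 2 was 21 bp from it and 264 bp upstream of wrt-3. All words of 36 bases in the 101 bp around the pooled summit occurred at 1 place in the genome. Sites close to such genes were common in these lists: 185 of the 856 pooled sites (21.6%) lay within 100 bp of a tRNA, snoRNA or snRNA gene. What part this has in the signal at wrt-3 was not tested.

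The wrt-1 gene, also a warthog gene, had a site in the conservative list only, at chrII:7529123-7529611, with a signal of 55.4. Its IDR was 0.00883 in that list and 0.039 in the pooled ranked list, so the call depended on which of these was used. The summit lay 1728 bp upstream of wrt-1 and 375 bp upstream of ZK1290.5, the nearest 5′ end. Replicate 1 had a candidate of 29.5 there (95.8 percentile) and replicate 2 had none within 100 bp. Farther than that from the summit, replicate 2 did have a candidate of 29.0 (97.4 percentile) in the wrt-1 window. The word ACGCAG occurs at this summit once on each strand, as printed above.

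The grl-16 gene encodes a ground-like protein, a family that has the ground-like domain and lacks the Hog domain. Its site at chrI:573770-574059 had a signal of 67.7, rank 604 of 856, and an IDR of 0.0053 in the pooled list against 0.0178 in the ranked list behind the conservative one. The summit lay within a coding exon, 1205 bp from the 5′ end, and grl-16 had the nearest 5′ end. Replicate 1 gave a signal of 44.5 (IDR 0.0286) and replicate 2 gave 22.0 (IDR 0.232), at the 98.8 and 90.9 percentiles of their candidates. The peak thus ranked higher in replicate 1 and passed the threshold in neither alone. Its sequence was fully single-copy, and the nearest tRNA, snoRNA or snRNA gene was 34673 bp away. It was the only one of the 4 sites in the pooled list with both of these properties.

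Both patched-related genes with a site had it in an intron. These proteins have many membrane spans and a sterol-sensing domain. At ptr-13, the site at chrII:11157701-11157990 had a signal of 73.5, rank 512, and an IDR of 0.00236, and its summit was 4635 bp from the 5′ end. Replicate 1 had 34.0 (IDR 0.491) and replicate 2 had 33.7 (IDR 0.0357), at the 97.4 and 98.5 percentiles of their candidates. Neither passed the threshold alone. The summit fell within a tRNA gene, K07C10.t1, at chrII:11157802-11157874. This gene of 73 bp has 25 exact copies in the genome, on 5 chromosomes, and 33.3% of the 36-base words around the summit were single-copy. Another 4 pooled sites shared such words with it, each on a tRNA gene, with signals from 72.4 to 94.8. A further region of ptr-13 in the conservative list, in a coding exon 3775 bp from the 5′ end, had a signal of 29.8, with an IDR of 0.00938 there and 0.728 in the pooled ranked list. At that region, replicate 1 had 34.1 (IDR 0.0695) and replicate 2 had no candidate within 100 bp.

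At ptr-17, the site at chrI:12840205-12840494 had the highest signal of any member, 81.1, rank 413 of 856, and the lowest IDR, 0.00111. Its summit lay 5235 bp from the 5′ end of ptr-17 and 3919 bp upstream of mxt-1, which had the nearest 5′ end. Replicate 1 had 48.0 (IDR 0.00654) and replicate 2 had 28.4 (IDR 0.701), so that replicate 1 alone passed the threshold. None of the 36-base words around this summit was single-copy: the median word had 13 copies and the most frequent 15. Another 4 pooled sites shared words with it, with signals from 57.1 to 71.9. The nearest of these to such a gene was 12273 bp away from it. Only 11 of the 856 pooled sites (1.29%) had no single-copy word. Reads from such repeats may come from any copy, and how the authors placed them is not given in the sources used here.

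**Figure D2:**
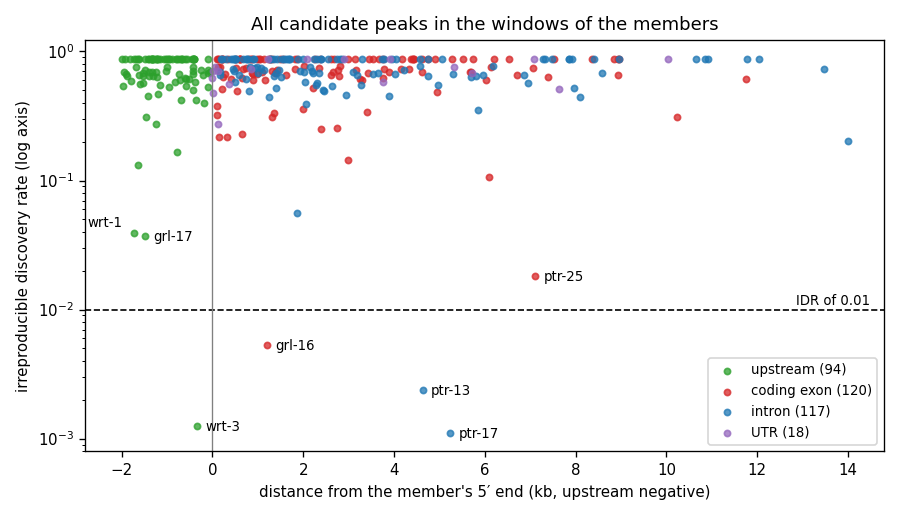
Every candidate in the windows of the members, by the distance of its summit from the 5′ end of the member in kb (upstream negative) and by its IDR on a log axis, coloured by location. The dashed line marks the IDR of 0.01, and the 7 members at or below 0.05 are named. One of the 4 points under the line, wrt-3, lies upstream, and the others lie in the gene.

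Of the 4 members with a site, wrt-3 and ptr-13 thus had it beside or on a small RNA gene, and ptr-13 and ptr-17 had it in mostly repeated sequence. In all, 5 members had a tRNA, snoRNA or snRNA gene in the window (wrt-3, wrt-9, grl-3, grl-26 and ptr-13), and 2 of the 5 (40.0%) had a site, beside 27.7% of the 869 coding genes with such a neighbour. Of the 81 members without one, 2 (2.47%) had a site, beside 3.55% of 19104 coding genes. Without sites within 100 bp of such genes, 2 members kept a site (2.33%), grl-16 and ptr-17, beside 3.78% of coding genes. Without sites of under 50% single-copy words, 2 members kept one (2.33%), wrt-3 and grl-16, beside 4.19% of coding genes. Without both kinds, grl-16 alone kept one (1.16%, interval 0.206 to 6.3%), beside 3.53% of coding genes. These alternatives were chosen after seeing the data.

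The next members lay just over the threshold. At an IDR of at most 0.02, 5 members were found (5.81%), the added one being ptr-25, beside 5.6% of coding genes. At 0.05 there were 7 members (8.14%), with grl-17 and wrt-1 added, beside 7.55% of coding genes. At 0.2 there were 10 members (11.6%), with ptr-4, ptr-12 and ptr-16 added, beside 14.9% of coding genes. The share of members was a little above the background at 0.05 and a little below it at 0.2. Collagen genes reached 13.5% at an IDR of 0.05 and 30.1% at 0.2, and nuclear hormone receptor genes 7.06% and 14.9%.

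**Figure D3:**
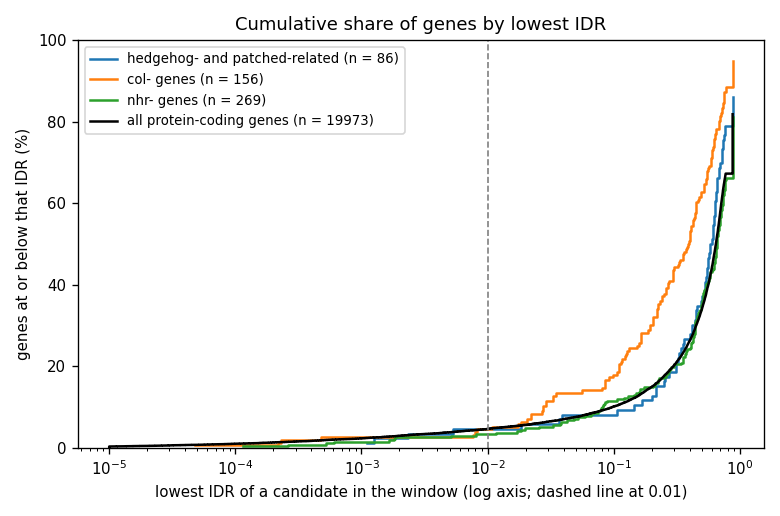
Cumulative percent of genes by the lowest IDR of any candidate in the window (log axis), for the 86 members, 156 collagen genes, 269 nuclear hormone receptor genes and all 19973 protein-coding genes. The dashed line marks the IDR of 0.01. The members run beside all coding genes, with 8.14% against 7.55% at 0.05, where collagen genes are at 13.5%.

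The candidate of ptr-25 at chrIII:10495090-10495379 had a signal of 53.5 and an IDR of 0.0183, in a coding exon 7111 bp from the 5′ end, with 29.5 in replicate 1 and 22.4 in replicate 2. That of grl-17 at chrV:13565288-13565577 had 57.2 and an IDR of 0.0371, 1492 bp upstream of grl-17 and 430 bp upstream of slrp-1, which is read from the other strand, with 39.4 in replicate 1 and 19.7 in replicate 2. Its sequence is printed above. Within the candidates of each replicate, both ranked higher in replicate 1. The percentiles in replicates 1 and 2 were 95.7 and 91.7 for ptr-25, and 98.4 and 85.7 for grl-17. Neither gene passed the threshold in either replicate.

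Below these, the 8 strongest members without a site in any list were ptr-14 (52.9), ptr-12 (47.9), ptr-4 (46.7), grl-22 (44.7), grl-26 (44.7), grl-27 (42.9), ptr-2 (42.5) and wrt-9 (42.1). The ptr-14 candidate, 1399 bp upstream, had an IDR of 0.648 in spite of its height, with 30.7 in replicate 1 and none at that place in replicate 2. The ptr-4 gene, which is needed for moulting and the cuticle, had its candidate 771 bp upstream with an IDR of 0.167, at 25 in replicate 2 and none at that place in replicate 1. The candidate of ptr-12 lay in a coding exon 2997 bp from the 5′ end, with 23.4 and 22.4 in the replicates and an IDR of 0.145. The lowest IDR among all 8 was that of ptr-12.

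The quahog gene qua-1, a Hog-domain gene needed for moulting, had a strongest candidate of 33.6 with an IDR of 0.766, in a coding exon 2803 bp from the 5′ end. The patched gene ptc-1, needed for cytokinesis in the germ line, had 36.5 (IDR 0.252), and ptc-3, needed for development, had 34.8 (IDR 0.461). Among the warthog genes wrt-2 had 29.3, wrt-5 39.0 and wrt-10 32.9, and hog-1 had 30.9. Among the groundhog genes the strongest was grd-8 with 38.1 and an IDR of 0.309, the lowest of that family, while grd-1 had 31.6 and grd-10 had 27.4, a candidate it shared with grd-3. Among the ground-like genes grl-7 had 26 and grl-21 had 38.5. The lowest values belonged to grl-19 (14.2) and ptd-2 (15.6), and ptr-10 had no pooled candidate, while its strongest in replicate 2 was 8.98.

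**Figure D4:**
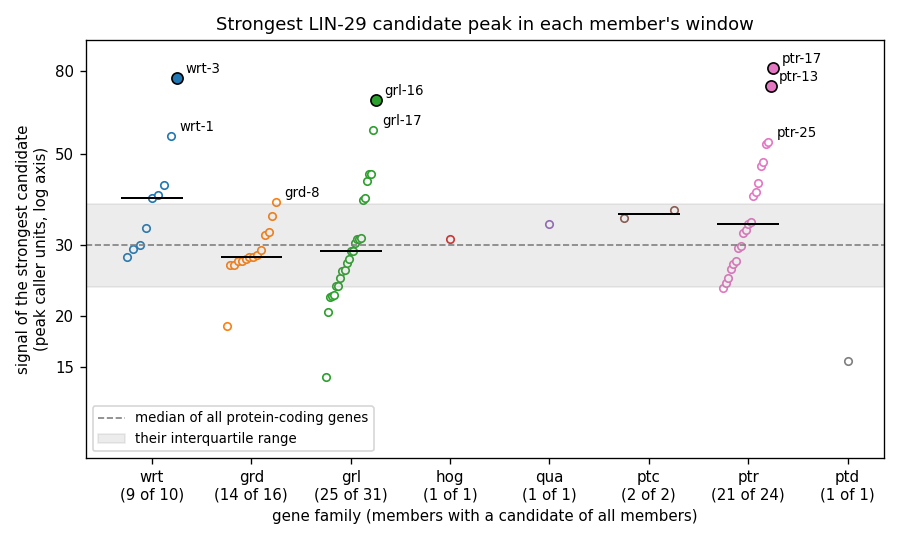
Signal of the strongest candidate in the window of each member (log axis, peak caller units), by family, with the number of members that have a candidate under each name. Filled points are the members with a site in the pooled list, short lines are family medians, and the dashed line and grey band are the median (29.9) and interquartile range of all protein-coding genes. Most members lie within the band. Those over it include wrt-3, grl-16, ptr-13 and ptr-17, whose sites were drawn from these same candidates. Members without a pooled site also lie over it, among them grl-17 (57.2), wrt-1 (55.4) and ptr-25 (53.5).

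Candidates of any rank were found at 74 of the 86 members (86.0%), beside 81.8% of coding genes. The 12 without one in the pooled ranked list were wrt-7, grd-2, grd-13, grl-2, grl-10, grl-11, grl-12, grl-18, grl-28, ptr-9, ptr-10 and ptr-15. Of these, grl-12, grl-18, grl-28 and ptr-15 had none in any of the 4 ranked lists, which is 4.65% of members beside 7.54% of coding genes. Over the 74 members the median signal of the strongest candidate was 30.5 (range 14.2 to 81.1), beside 29.9 for all coding genes with one, and 25.6% of the 86 members had a candidate in the top decile of all candidates, beside 22.5% of coding genes. Family medians ran from 28.0 for the groundhog and 29.0 for the ground-like genes to 33.7 for the ptr and 39.0 for the warthog genes. Windows differed between the families as well: the median window was 3771 bp for groundhog, 3301 bp for ground-like, 4640 bp for warthog and 7953.5 bp for ptr genes. The groundhog and ground-like genes had both the lower medians and the shorter windows. Warthog genes had the highest median with a shorter window than ptr genes. What part window length has in these medians was not tested.

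A longer window can hold more summits, so sites were also counted by window length. None of the 36 members with a window of up to 4000 bp had a site, beside 3.13% of coding genes of that length. From 4000 to 8000 bp it was 3 of 33 members (9.09%), wrt-3, grl-16 and ptr-13, beside 4.91%. Over 8000 bp it was ptr-17 alone, 1 of 17 members (5.88%), beside 9.69%. The differences between members and coding genes at each length were not tested.

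The strongest candidate of a member lay more often in coding exons, and less often upstream, than that of coding genes at large, a difference that was not tested. It was in a coding exon for 32 of 74 members (43.2%), beside 27.2% of coding genes, and upstream for 23 (31.1%), beside 48.2%. Introns held it for 15 members (20.3%), beside 20.5%. Coding exons made up 28.2% of the members' windows and 23.7% of all windows, and the GC content around the strongest candidate had a median of 44.6% in members and 41.6% in all coding genes. In collagen genes, with 54.5% GC at the strongest candidate, the coding-exon share was 61.5%. What part coding length and GC content have in this placement was not tested. Over all 349 pairs of a member and a candidate in its window, the median signal was 22.9 upstream, 22.8 in coding exons and 22.3 in introns. It was 26 for the 18 pairs in UTRs. A candidate shared by neighbouring members counts once for each of them.

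The 4 words searched on both strands in the 101 bp at each summit came from earlier results on these same sites. ACGCAG was present at 17.2% of the 856 sites and 3.18% of the candidates, GAGAGA at 22.0% and 7.14%, ACGCGC at 12.5% and 2.22%, and the run AAAAAA at 24.3% and 30.9%. None of the 4 words was present at the pooled sites of wrt-3, grl-16, ptr-13 or ptr-17. The only members with an IDR of at most 0.05 that held one were wrt-1, with ACGCAG, and grl-17, with ACGCAG and GAGAGA, both upstream and both at an IDR over the pooled threshold. An absent word says only that these letters are not in this window.

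The replicates were compared over the 73 members with a candidate in both. The highest candidate of each member ranked only loosely alike, with a Spearman rho of 0.34, beside 0.429 over 13681 coding genes. These points share library depth and window length, so the values are a description. For hedgehog-related genes rho was 0.351 (50 genes) and for patched-related genes 0.237 (23 genes). The strongest pooled candidate had a replicate 1 candidate within 100 bp at 51 of 74 members, a replicate 2 candidate at 47, and both at 31. The same counts were not made over all coding genes, so whether the members differ from these is not known. The median signals of members were 18.5 in replicate 1 and 17.0 in replicate 2, beside 18.3 and 16.8 for coding genes.

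**Figure D5:**
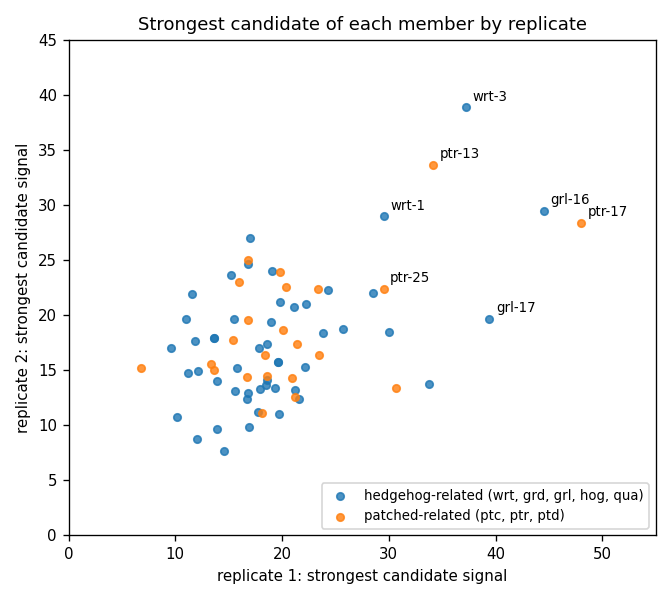
Signal of the strongest candidate of each member in replicate 1 (horizontal axis) and replicate 2 (vertical axis), each taken from that replicate's own ranked list, for the 73 members with a candidate in both. The 2 need not be at the same place. Most members form a loose cloud, and rho over all points is 0.34. On the upper right side lie wrt-3, grl-16, ptr-13 and ptr-17, whose sites were called from both replicates together, and also wrt-1 (29.5 and 29.0). The replicate 2 value of grl-16, 29.5, is from another place than its site, where replicate 2 had 22.0. The replicate 1 value of ptr-13, 34.1, is from another place than its pooled site, where replicate 1 had 34.0. For wrt-1, the replicate 2 value is also from another place than its site in the conservative list.

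Members are spread over all chromosomes, with 33 on V, 13 each on IV and X, 11 on II, 9 on I and 7 on III. The sites were on I (2), II and IV (1 each), and none of the members on III, V or X had one. The share of coding genes with a site was 6.33% on III, 4.65% on X and 3.04% on V, the lowest. It was 6.71% on I, the highest. Whether the members differ from these shares was not tested. The distance from a member's 5′ end to the nearest pooled site had a median of 53756.5 bp, from 331 bp at wrt-3 to 337374 bp, beside 50784 bp for coding genes. Within 10000 bp lay 10 members (11.6%), beside 14.7%. Members are not all separate: 7 pairs among 10 members have overlapping windows, mostly neighbours of the same family such as grd-4 and grd-14, so that 349 gene and candidate pairs are 342 candidates.

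Other genes of hedgehog-type signalling, sterol handling and release, 31 in all, gave 2 genes with a site (6.45%, interval 1.79 to 20.7%), beside the 4.61% of coding genes. They were kin-20, a casein kinase 1 gene that acts in developmental timing, and kin-1, which encodes the catalytic subunit of protein kinase A. The kin-20 site had a signal of 101 in an intron 3531 bp from the 5′ end, with a second site of 53.2 at 234 bp upstream. That second site, rank 830 of 856, had an IDR of 0.00997. It was not in the conservative list, with 0.123 in the ranked list behind that one. The kin-1 site had 65.1 in an intron 31818 bp from the 5′ end. The nearest 5′ end was that of ZK909.3, 7906 bp away, and replicate 1 had no candidate within 100 bp. Neither kin-20 nor kin-1 had a site in the list of either single replicate, beside 2.94% of coding genes in replicate 1 and 2.22% in replicate 2. None of the genes nearest to the families had one: tra-1, the GLI-type zinc finger gene of sex determination, had 48.5 (IDR 0.0735), che-14, related to Dispatched, 36.8 (IDR 0.27), daf-6, a patched-related gene of glia, 27.7 (IDR 0.596), and the Niemann-Pick C1 genes ncr-1 and ncr-2 35.9 (IDR 0.252) and 48.6 (IDR 0.11). At an IDR of at most 0.05, gsk-3 (48.3) and hmgr-1 (51.7) were added, which made 4 of 31 (12.9%), beside 7.55% of coding genes. The median window of the 31 genes was 7839 bp, beside 4027 bp for all coding genes. Of coding genes with a window of 4000 to 8000 bp, 4.91% had a site and 7.84% a candidate at an IDR of at most 0.05. Over 8000 bp, these shares were 9.69% and 15.4%. What part window length has in the shares of the 31 genes was not tested.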

How the data were processed

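ChIP-seq peak lists of 2 biological replicates were used. Per the labels, the authors mapped to ce11; no source used here names the aligner, the peak caller or any filter for repeats. The 8 deposited lists comprise 4 ranked lists (pooled, conservative and 1 per replicate) and the 4 thresholded lists drawn from them. In each deposited list, the signal is the authors' peak caller's height, with unstated scaling. The deposited score, at most 1000, follows from the IDR, which the authors gave as a −log10 value; the lowest score kept, 830, is an IDR of 0.01. No list carries read counts, so depth is unknown. A further 16 columns of per-input values were not used. The replicates are separate biosamples of 1 strain.

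Overlapping peaks (1 bp or more) were merged, keeping the strongest summit, and assigned to Ensembl release 115 gene models; sequences are from RefSeq WBcel235 (ce11), where all 86 members were found, 82 of them with both ends within 100 bp of the Ensembl ones. Single-copy share is the share of 36-base words in the 101 bp at a summit that occur once in the genome, either strand. With 1 group of 2 samples, no test was run; counts stand beside those of all coding genes with 95% Wilson intervals. Assignment was checked on simulated data. Python 3.11.15, numpy 2.4.6, pandas 2.3.3 and scipy 1.17.1 were used. The members, lists and search words were chosen with earlier results of these data known. Named were members with a peak in a thresholded list, the 10 strongest others, the strongest per family, 16 listed members with known roles, pathway genes with a peak plus 5 listed ones, and the coding gene nearest each member site. Alternatives comprised other lists, IDR limits, windows and assignment rules, and each replicate alone. Of 32 pathway symbols, 31 matched a gene.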

Additional observations from a re-analysis of the deposited data

How the results depend on the processing

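The count of 4 members with a site was 4 in the conservative list, 5 at an IDR of at most 0.02, 4 with any overlap of 1 bp (4.65%, beside 4.91% of coding genes) and 3 with the nearest 5′ end only (3.49%, beside 2.9%), where ptr-17 was lost. It was 4 with 1000 and with 5000 bp upstream, so that the share of 4.65% stood above 3.76% of coding genes with the first and below 6.85% with the second. It became 1 (ptr-17; 1.16%, beside 2.54%) with sites over the median signal, 7 (8.14%, beside 7.55%) at an IDR of at most 0.05, 1 (wrt-3; 1.16%, beside 2.08%) within 500 bp of the 5′ end, and 1 in each list of a single replicate. With alternatives chosen after seeing the data it became 2 without sites near small RNA genes, 2 without repeated sequence and 1 without both. The 2 pathway genes became 1 (3.23%) with sites over the median signal, within 500 bp and with the nearest 5′ end, beside 2.54%, 2.08% and 2.9% of coding genes, and 4 (12.9%, beside 7.55%) at an IDR of at most 0.05. They became 0 in each single replicate, beside 2.94% of coding genes in replicate 1 and 2.22% in replicate 2. The median signal of 30.5 moved to 25.4 within 500 bp, to 32.4 with 5000 bp upstream, and to between 17.0 and 18.5 in single replicates, whose signal scale is lower. The 74 members with a candidate became 49 within 500 bp (57.0%, beside 48.3% of coding genes). Fewer sites or shorter windows leave fewer genes by construction; why the single replicates differ was not tested. The signal at each of the 4 members was the same without merging. No paired analysis was possible because there is 1 group and no test. Depth is unknown, so an absent site was not detectable here, not shown to be absent, and no mock immunoprecipitation was analysed here.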
